A study of Homo sapiens with 10 samples.

Results

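The expression of 9 genes, 8 of the poly(ADP-ribose) polymerase (PARP) family and the ubiquitin ligase *DTX3L*, was measured by RNA-seq in VCaP cells, an established human prostate cancer line, after knockdown of the chromatin remodelers *SMARCA4* or *SMARCA1*. They were chosen by name from the 59386 genes listed: *PARP1* and *PARP2* as DNA repair enzymes, *PARP9*, *DTX3L*, *PARP10*, *PARP11*, *PARP12* and *PARP14* as the interferon-linked group, and *PARP8*, which was placed in neither. The grouping followed general knowledge of these genes, and it was made with earlier results of these data known. RNA was taken at 72 h in 5 groups of 2 libraries, and the siRNA groups had lipid transfection of 30 pmol siRNA. *SMARCA4* was targeted by siRNAs A and B, *SMARCA1* by siRNAs A and C, and the remaining group was a control labelled wild type, for which the labels name neither an siRNA nor a dose. All 10 libraries came from the one cell line, and which numbered siRNA sequence each letter stands for is not given in the sources used here.

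ADP-ribosyltransferases use NAD to attach ADP-ribose to proteins and nucleic acids. PARP1 and PARP2 bind broken DNA and build poly(ADP-ribose) chains that gather repair proteins at the break, whereas most other members attach single ADP-ribose units. Several of these single-unit enzymes are known as interferon-stimulated genes: interferons act through the JAK kinases, and transcription factors activated in this way bind the interferon-stimulated response element (ISRE) or the gamma-activated site (GAS) in target promoters. DTX3L is an E3 ubiquitin ligase that works as a heterodimer with PARP9.

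The libraries held between 23898545 and 34667965 counts, and 22751 to 24297 genes had counts in each. All 9 members were among the 16899 genes that passed the filter on low counts and were tested. Values are given as CPM, counts scaled to library size with the TMM factor, which corrects for differences in library composition. The targeted gene was low in every library labelled for it: *SMARCA4* stood at 242.2 and 267.6 CPM in the controls and at 13.3 to 25.2 CPM with its siRNAs, and *SMARCA1* at 31.5 and 32.3 CPM in the controls and at 1.75 to 3.40 CPM with its own. *SMARCA1* was also higher, at 57.4 to 83.8 CPM, in the *SMARCA4* knockdown. Replicates of *SMARCA4* siRNA A and of *SMARCA1* siRNA A differed more from each other (mean chi-square per gene 42.9 and 60.6) than those of *SMARCA4* siRNA B (22.7), the control (6.39) or *SMARCA1* siRNA C (3.80). All 10 prostate epithelial markers on a list drawn up for the purpose were above 1 CPM on average in each condition, and their sum lay between 8774 and 10572 CPM in every library. The labels do not say whether replicates came from separate cultures, so p-values measure only the spread between these libraries, which may be technical.

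*PARP9* and *DTX3L* lie head to head on chromosome 3, and *PARP14* follows 105635 bases beyond the end of *DTX3L*. In GRCh38, *PARP9* occupies chr3:122527924-122564577 on the minus strand, *DTX3L* chr3:122564338-122575203 on the plus strand and *PARP14* chr3:122680839-122730840 on the plus strand. The 5′ ends of *PARP9* and *DTX3L* overlap by 240 bases, of which 139 are exonic in both genes. The other members are dispersed. *PARP1* lies at chr1:226360210-226408154 (minus), *PARP2* at chr14:20343615-20357904 (plus), *PARP8* at chr5:50665899-50846519 (plus), *PARP11* at chr12:3791047-3873448 (minus) and *PARP12* at chr7:140023749-140062951 (minus). All are protein coding.

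Promoter windows from RefSeq (GRCh38.p14, 250 bases before to 50 after each start) matched 8 of the 9 members with 11 windows, and were searched on both strands for the ISRE letters, GAAA and GAAA with any 2 bases between them, and for the GAS letters TTCNNNGAA. The 5 windows below are shown because they cover members whose RNA moved in different ways, 3 that rose in both knockdowns, *PARP11*, which was called lower in the *SMARCA1* knockdown, and *PARP1*, which was called lower in the *SMARCA4* knockdown. They read 5′ to 3′ on the strand of the gene, and capitals mark the motif letters.
DTX3L (chr3:122564088-122564387, plus strand): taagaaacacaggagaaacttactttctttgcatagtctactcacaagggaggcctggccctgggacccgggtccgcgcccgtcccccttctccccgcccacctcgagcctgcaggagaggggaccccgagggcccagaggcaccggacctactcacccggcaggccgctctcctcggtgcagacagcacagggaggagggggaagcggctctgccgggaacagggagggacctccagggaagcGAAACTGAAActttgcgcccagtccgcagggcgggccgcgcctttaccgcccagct
PARP14 (chr3:122680589-122680888, plus strand): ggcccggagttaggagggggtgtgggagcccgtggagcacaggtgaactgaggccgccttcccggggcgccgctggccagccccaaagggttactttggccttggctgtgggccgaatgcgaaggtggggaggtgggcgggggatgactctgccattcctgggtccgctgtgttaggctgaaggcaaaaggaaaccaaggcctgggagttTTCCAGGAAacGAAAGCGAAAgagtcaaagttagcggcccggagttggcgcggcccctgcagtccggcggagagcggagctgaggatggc
PARP12 (chr7:140062902-140063201, minus strand): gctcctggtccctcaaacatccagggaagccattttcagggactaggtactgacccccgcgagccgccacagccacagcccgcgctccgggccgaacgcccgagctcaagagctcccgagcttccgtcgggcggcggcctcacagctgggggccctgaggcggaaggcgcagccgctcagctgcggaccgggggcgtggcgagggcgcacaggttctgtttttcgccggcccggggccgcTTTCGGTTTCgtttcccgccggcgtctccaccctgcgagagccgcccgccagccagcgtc
PARP11 (chr12:3873350-3873649, minus strand): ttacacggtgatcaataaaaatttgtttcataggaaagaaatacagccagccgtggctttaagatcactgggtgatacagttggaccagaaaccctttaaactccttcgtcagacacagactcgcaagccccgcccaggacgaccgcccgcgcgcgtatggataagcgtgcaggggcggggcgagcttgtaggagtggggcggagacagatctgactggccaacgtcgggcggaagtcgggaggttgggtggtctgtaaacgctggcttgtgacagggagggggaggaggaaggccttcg
PARP1 (chr1:226408044-226408343, minus strand): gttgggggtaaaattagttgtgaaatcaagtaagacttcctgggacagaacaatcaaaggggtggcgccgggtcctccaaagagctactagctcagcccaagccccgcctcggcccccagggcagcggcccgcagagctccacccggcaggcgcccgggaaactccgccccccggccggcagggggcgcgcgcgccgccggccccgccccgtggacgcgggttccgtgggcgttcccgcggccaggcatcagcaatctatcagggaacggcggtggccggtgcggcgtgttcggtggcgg

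*PARP10* was not matched. The ISRE letters were found in 4 of the 8 matched genes. In *DTX3L* they span the start, from -6 to 4 with the first transcribed base as 1, and the same 10 bases (chr3:122564332-122564341) lie at -41 to -32 of one of the 2 *PARP9* windows, so the head-to-head pair holds them once between them. *PARP14* has them at -29 to -20, close to GAS letters at -40 to -32, and *PARP12* has them directly before its start at -10 to -1, read on the opposite strand. *PARP2* has GAS letters, at -154 to -146, and no ISRE letters. Neither motif is in the windows of *PARP1*, *PARP8* or *PARP11*. Of all 35116 RefSeq promoter windows, 3.57% hold the ISRE letters and 7.66% the GAS letters. A match is a run of letters and was not tested as a binding site.

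*PARP1* was the most abundant member per transcript length in the controls, and it fell with both *SMARCA4* siRNAs. Its level was 405.2 and 416.7 CPM in the controls, 299.9 and 314.4 CPM under *SMARCA4* siRNA A, and 296.6 and 306.1 CPM under siRNA B. Under *SMARCA1* siRNA A it measured 361.5 and 407.0 CPM, and under siRNA C 367.2 and 341.2 CPM. All 4 *SMARCA4* libraries were thus below both controls without overlap, and one *SMARCA1* library reached the range of the controls. The log2 fold change was -0.43 (SE 0.09, adjusted p = 0.0032 by edgeR's quasi-likelihood test) in the *SMARCA4* knockdown and -0.16 (SE 0.09, adjusted p = 0.18) in the *SMARCA1* knockdown. The *SMARCA4* value passed the threshold with siRNA A (-0.42, adjusted p = 0.012) and siRNA B (-0.45, adjusted p = 0.0063) taken alone, and missed it without control replicate 2 (-0.38, adjusted p = 0.051). Tested directly, *PARP1* was lower in the *SMARCA4* than in the *SMARCA1* knockdown by a log2 difference of -0.28 (SE 0.07, adjusted p = 0.016). That difference missed the threshold when any one of *SMARCA1* siRNA C replicate 1, *SMARCA4* siRNA A replicate 1, or either siRNA B replicate was left out, with adjusted p between 0.052 and 0.089. Among all tested genes, 22.3% were called lower in the *SMARCA4* knockdown, so a fall of this kind was common.

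*PARP2*, the close relative of *PARP1* in break sensing, was called in neither knockdown. Its level was 22.4 and 22.5 CPM in the controls, 25.4 and 28.1 CPM with *SMARCA4* siRNA A, 22.0 and 22.1 CPM with siRNA B, 20.4 and 20.6 CPM with *SMARCA1* siRNA A and 20.5 and 20.9 CPM with siRNA C. The log2 fold change was 0.11 (SE 0.10, adjusted p = 0.37) in the *SMARCA4* knockdown and -0.12 (SE 0.10, adjusted p = 0.32) in the *SMARCA1* knockdown. Both *SMARCA4* siRNA A libraries were above the controls and both siRNA B libraries below them. Against control these siRNAs gave 0.25 (adjusted p = 0.1) and -0.03 (adjusted p = 0.86), so the siRNA B libraries lay close to the controls. Between the knockdowns *PARP2* differed by 0.23 (SE 0.08, adjusted p = 0.04), and this call was lost in 8 of 15 other ways of fitting the data, DESeq2 among them (adjusted p = 0.053). Because an RNA gene, *RPPH1*, shares 71 exonic bases with *PARP2* on the opposite strand, and whether the counting used strand is not given in the sources used here, reads from those bases could have been assigned to either gene.

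Of the 6 interferon-linked members, 5 rose with each of the 4 siRNAs, and *PARP11* was the exception. In both knockdowns *PARP9*, *DTX3L*, *PARP10*, *PARP12* and *PARP14* were called higher, where the share of all tested genes called higher was 22.8% (*SMARCA4*) and 23.8% (*SMARCA1*). The lowest knockdown library was above both controls for each of these 5 genes. Their calls were made in every one of the 13 other ways of fitting tried for each knockdown.

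**Figure D1:**
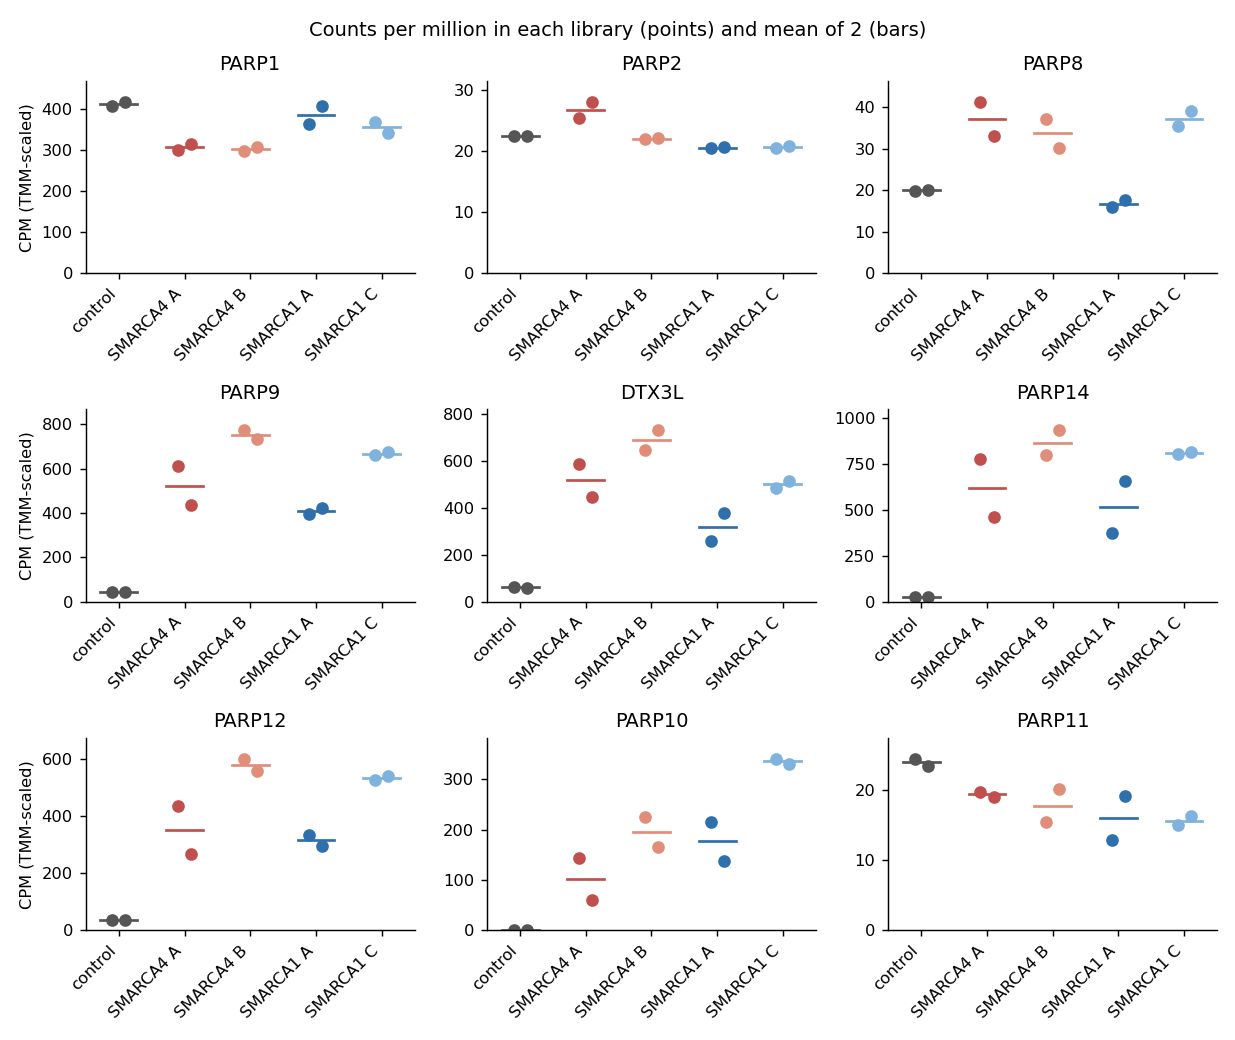
Level of each of the 9 genes in CPM (y axes from 0, scaled to each gene) in the 5 groups, 2 libraries each, with points for libraries and bars for group means. *PARP9*, *DTX3L*, *PARP14*, *PARP12* and *PARP10* are low in both controls and high in all 8 knockdown libraries, whereas *PARP1*, *PARP2* and *PARP11* stay within the same order of size and *PARP8* is low with *SMARCA1* siRNA A.

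*PARP9* went from 44.8 and 44.5 CPM in the controls to 609.5 and 434.3 CPM with *SMARCA4* siRNA A and 772.7 and 730.9 CPM with siRNA B. With *SMARCA1* siRNA A it reached 394.6 and 423.1 CPM and with siRNA C 661.1 and 672.8 CPM. The controls differed by little, and the siRNA groups differed among themselves by less than any of them did from the controls. Its log2 fold change was 3.81 (SE 0.16, adjusted p = 4.9e-07), or 14.0-fold, in the *SMARCA4* knockdown and 3.55 (SE 0.15, adjusted p = 9.8e-07), or 11.7-fold, in the *SMARCA1* knockdown. The difference of 0.26 between the knockdowns (SE 0.10, adjusted p = 0.072) did not pass. It passed under 4 of 15 alternatives, among them without *SMARCA1* siRNA A replicate 2 (0.30, adjusted p = 0.044) and without *SMARCA4* siRNA A replicate 2 (0.38, adjusted p = 0.0059).

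*DTX3L*, which shares its start region with *PARP9*, had a smaller log2 fold change than its partner. It stood at 63.4 and 60.7 CPM in the controls, 587.7 and 445.2 CPM with *SMARCA4* siRNA A, 644.1 and 729.5 CPM with siRNA B, 257.1 and 377.2 CPM with *SMARCA1* siRNA A and 485.7 and 512.9 CPM with siRNA C. The log2 fold change was 3.26 (SE 0.19, adjusted p = 3.4e-06) in the *SMARCA4* knockdown and 2.68 (SE 0.18, adjusted p = 9.3e-06) in the *SMARCA1* knockdown. It was higher in the *SMARCA4* than in the *SMARCA1* knockdown by 0.58 (SE 0.13, adjusted p = 0.0072), a call kept in all 15 other ways of fitting.

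The counts of the pair stood in a different ratio in the controls than in the knockdown libraries. There were 1.42 and 1.36 *DTX3L* counts for each *PARP9* count in the controls, 0.834 to 1.02 in the *SMARCA4* libraries and 0.652 to 0.892 in the *SMARCA1* libraries. The controls lay above all knockdown libraries, while the ranges of the 2 knockdowns overlapped. *DTX3L* had more counts than *PARP9* in both controls and fewer in 7 of 8 knockdown libraries. The 139 shared exonic bases could have moved some reads from one gene to the other.

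*PARP14*, a large single-unit transferase with macrodomains that bind ADP-ribose, had larger log2 fold changes than *PARP9* and *DTX3L*. It was at 29.4 and 28.5 CPM in the controls, 778.3 and 462.0 CPM with *SMARCA4* siRNA A, 801.2 and 936.2 CPM with siRNA B, 375.6 and 659.6 CPM with *SMARCA1* siRNA A and 808.7 and 818.7 CPM with siRNA C. The replicates of each siRNA A group lay far apart, and even their lower library was above 10 times the control level. Its log2 fold change was 4.66 (SE 0.30, adjusted p = 5.5e-06) in the *SMARCA4* knockdown and 4.49 (SE 0.30, adjusted p = 7.6e-06) in the *SMARCA1* knockdown, with no call between them (0.18, SE 0.19, adjusted p = 0.49).

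*PARP12*, a zinc finger member of the family, stood at 38.2 and 35.6 CPM in the controls, 436.6 and 268.3 CPM with *SMARCA4* siRNA A, 602.9 and 559.9 CPM with siRNA B, 334.5 and 297.8 CPM with *SMARCA1* siRNA A and 526.4 and 542.2 CPM with siRNA C. It rose by 3.62 (SE 0.20, adjusted p = 2.6e-06) and 3.48 (SE 0.20, adjusted p = 3.1e-06) on the log2 scale in the *SMARCA4* and *SMARCA1* knockdown. The knockdowns did not differ for it beyond the spread (0.14, SE 0.13, adjusted p = 0.44).

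*PARP10*, another single-unit transferase, had the largest log2 fold changes of the 9 genes. It lies at chr8:143977153-144012772 (minus). It was nearly silent in the controls, with 43 and 40 counts, or 1.80 and 1.49 CPM. It reached 143.8 and 60.0 CPM with *SMARCA4* siRNA A, 224.3 and 165.9 CPM with siRNA B, 215.4 and 138.0 CPM with *SMARCA1* siRNA A and 341.3 and 330.9 CPM with siRNA C. The log2 fold change was 6.42 (SE 0.45, adjusted p = 9e-06) in the *SMARCA4* knockdown and 7.21 (SE 0.47, adjusted p = 6.5e-06) in the *SMARCA1* knockdown, ranks 79 and 83 from the top of all genes tested. Unlike *DTX3L*, it was lower in the *SMARCA4* than in the *SMARCA1* knockdown (-0.79, SE 0.24, adjusted p = 0.029). That difference missed the threshold without *SMARCA1* siRNA A replicate 1, either siRNA C replicate or *SMARCA4* siRNA B replicate 2, with adjusted p from 0.067 to 0.099. *PARP10* shares 324 exonic bases with *GRINA* on the opposite strand, so some counts may belong to either gene. *GRINA* stood at 215.8 and 225.9 CPM in the controls, 266.5 to 416.8 CPM in the *SMARCA4* and 331.0 to 480.6 CPM in the *SMARCA1* libraries, and its part in the *PARP10* counts was not tested.

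*PARP11*, which resides at the nuclear envelope and is also listed among interferon-stimulated genes, went the other way. Its level was 24.4 and 23.3 CPM in the controls, 19.7 and 19.0 CPM with *SMARCA4* siRNA A, 15.36 and 20.03 CPM with siRNA B, 12.8 and 19.1 CPM with *SMARCA1* siRNA A and 15.01 and 16.2 CPM with siRNA C. All 8 knockdown libraries were below both controls. The log2 fold change of -0.60 (SE 0.16, adjusted p = 0.012) in the *SMARCA1* knockdown was called, where 23% of all genes were called lower. The value of -0.37 (SE 0.16, adjusted p = 0.086) in the *SMARCA4* knockdown was not. The *SMARCA1* call was lost without control replicate 1 (adjusted p = 0.1) or control replicate 2 (adjusted p = 0.066).

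*PARP8*, a family member with no settled role, set the 2 *SMARCA1* siRNAs apart. It was at 19.9 and 20.2 CPM in the controls, 15.9 and 17.6 CPM with *SMARCA1* siRNA A and 35.4 and 39.0 CPM with siRNA C. *SMARCA4* siRNA A gave 41.3 and 33.0 CPM, and siRNA B gave 37.2 and 30.3 CPM. Both *SMARCA1* siRNA A libraries were below the controls, and the other 6 knockdown libraries were above them. *PARP8* rose by 0.82 (SE 0.13, adjusted p = 0.00083) in the *SMARCA4* knockdown, and its mean change of 0.32 (SE 0.13, adjusted p = 0.072) over the *SMARCA1* siRNAs joined a value of -0.26 (SE 0.15, adjusted p = 0.21) with siRNA A to one of 0.89 (SE 0.15, adjusted p = 0.0011) with siRNA C. It was higher in the *SMARCA4* than in the *SMARCA1* knockdown by 0.50 (SE 0.10, adjusted p = 0.0051).

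**Figure D2:**
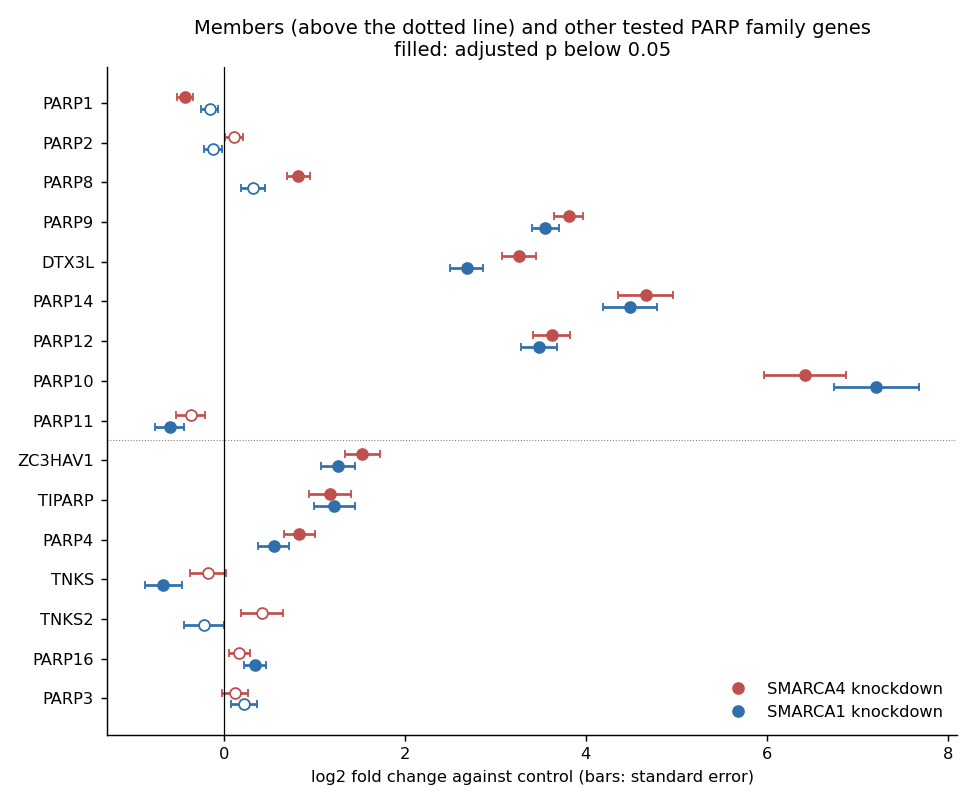
Log2 fold change against control (x axis, bars are standard errors) of the 9 genes and of the 7 other tested PARP family genes, in red for the *SMARCA4* and in blue for the *SMARCA1* knockdown, with filled points for an adjusted p below 0.05. The 5 genes *PARP9*, *DTX3L*, *PARP14*, *PARP12* and *PARP10* lie between 2.68 and 7.21 in both knockdowns, and the remaining 11 genes lie between -0.67 and 1.53.

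Counting over the 9 genes, 7 were called in the *SMARCA4* knockdown (6 higher and 1 lower) against 45.1% of all tested genes, and 6 in the *SMARCA1* knockdown (5 higher and 1 lower) against 46.8%. Between the knockdowns 5 members were called (*DTX3L*, *PARP2* and *PARP8* higher and *PARP1* and *PARP10* lower in the *SMARCA4* knockdown), against 35.4% of all genes. With *SMARCA4* siRNA A 7 members were called against a background of 33.2%, with siRNA B 7 against 45%, with *SMARCA1* siRNA A 6 against 34.8% and with siRNA C 7 against 45.3%. These 4 comparisons share the 2 control libraries. With nearly every second gene called, a call alone says little, and the sizes carry more: the median absolute log2 fold change of all tested genes was 0.44 in each knockdown.

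The median log2 fold change of the 6 interferon-linked members was 3.71 in the *SMARCA4* and 3.51 in the *SMARCA1* knockdown, that of *PARP1* and *PARP2* was -0.16 and -0.14, and that of all tested genes was 0.00 in both. The interferon-linked median exceeded the repair median by 3.87 in the *SMARCA4* knockdown and by 3.65 in the *SMARCA1* knockdown. By siRNA the gap was 3.49 and 4.26 for *SMARCA4* A and B, and 3.26 and 4.04 for *SMARCA1* A and C. In single libraries, set against the mean of the controls, it ran from 3.10 in *SMARCA4* siRNA A replicate 2 to 4.32 in siRNA B replicate 1, with a pooled SD of 0.233 within groups. In both knockdowns, therefore, siRNA A gave the smaller gap.

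**Figure D3:**
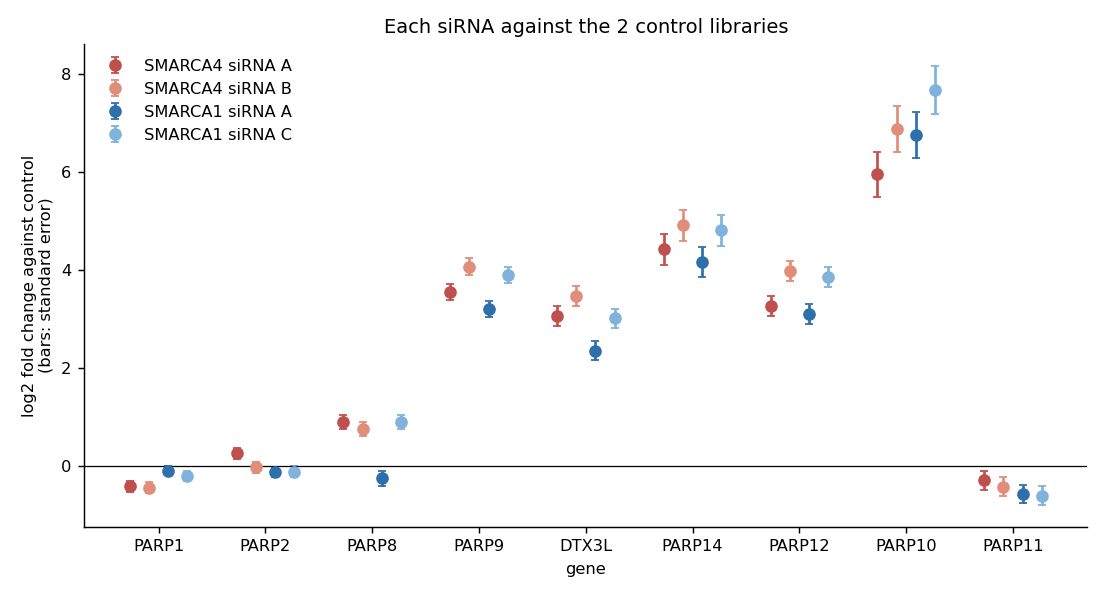
Log2 fold change of each gene (y axis, bars are standard errors) with each of the 4 siRNAs against the same 2 control libraries. For *PARP9*, *DTX3L*, *PARP14*, *PARP12* and *PARP10* the siRNA A point is the lower one of its pair for either target, and *PARP8* is at -0.26 with *SMARCA1* siRNA A and at 0.75 to 0.89 with the other 3 siRNAs.

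The siRNAs of one target were then compared directly. Neither comparison called a member at an adjusted p below 0.05 by edgeR's quasi-likelihood test. Between *SMARCA4* siRNA B and A, 6.2% of all genes were called by the same test. DESeq2 called 3 members there, and 1674 of all 16899 tested genes. By the edgeR test *PARP12* came nearest, higher with siRNA B by 0.72 (SE 0.19, adjusted p = 0.051), followed by *PARP9* at 0.53 (SE 0.15, adjusted p = 0.061). Between *SMARCA1* siRNA C and A, the edgeR test called 0.0118% of all genes (2 genes). DESeq2 called 4 members there, and 516 of the 16899 genes. *PARP8* was nearest by the edgeR test, at 1.15 (SE 0.15, adjusted p = 0.096, unadjusted p = 1.7e-05).

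Levels can be compared between genes only per length, for which TPM, counts per base of the canonical transcript scaled to the library, were computed. In the controls *PARP1* led with a mean of 252.2 TPM (SD 5.92, n = 2), well above *PARP9* (35.8 TPM). *PARP2* (30.0 TPM) and *PARP12* (29.8 TPM) overlapped in range, and *DTX3L* (26.2 TPM), *PARP11* (13.1 TPM), *PARP14* (9.18 TPM), *PARP8* (6.54 TPM) and *PARP10* (1.14 TPM) followed, each apart from the next. By this length the order in the *SMARCA4* knockdown began with *PARP9* (549.6 TPM, SD 131.5, n = 4), *PARP12* (406.2), *DTX3L* (274.5) and *PARP14* (254.6), whose neighbours overlapped in range. *PARP1*, at 201.1 TPM (SD 9.49), came after these, and *PARP10* had moved from last place to a rank above *PARP2* with 111.1 TPM (SD 49.9). In the *SMARCA1* knockdown *PARP9* (422.4 TPM, SD 112.8, n = 4) and *PARP12* (335.8 TPM) again came first, and *PARP1* (223.0 TPM), *PARP14* (208.0 TPM), *PARP10* (173.9 TPM) and *DTX3L* (169.8 TPM) overlapped one with the next. The order depends on the length used. With merged exons *DTX3L* came second in the controls (47.1 TPM) and *PARP9* (21.9 TPM) after *PARP12* and *PARP2*. In the *SMARCA4* knockdown *DTX3L* (464.0 TPM) then led, *PARP9* (316.4 TPM) followed *PARP12* and *PARP14*, and *PARP10* (109.0 TPM) stood above *PARP1* (73.5 TPM) with overlapping ranges. In the *SMARCA1* knockdown *PARP12* (318.0 TPM) led, and *PARP10* (174.4 TPM) lay above *PARP1* (83.4 TPM) without overlap.

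Summed over genes, the interferon-linked members held 117.2 and 113.3 TPM in the controls, less than the 277.9 and 286.5 TPM of *PARP1* and *PARP2*. In the knockdowns they held 1030 to 1976 TPM (*SMARCA4*) and 915 to 1645 TPM (*SMARCA1*), and the repair pair 221.9 to 249.4 TPM and 230.5 to 291.1 TPM. The ratio of the first sum to the second was 0.422 and 0.395 in the controls, 4.13 to 8.51 in the *SMARCA4* knockdown and 3.81 to 7.14 in the *SMARCA1* knockdown. The length also moves these sums, most plainly through *PARP1*, whose merged exons span 18399 bases and whose canonical transcript has 3978. With merged exons the ratio was 1.09 and 1.02 in the controls and 9.07 to 19.8 over both knockdowns.

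**Figure D4:**
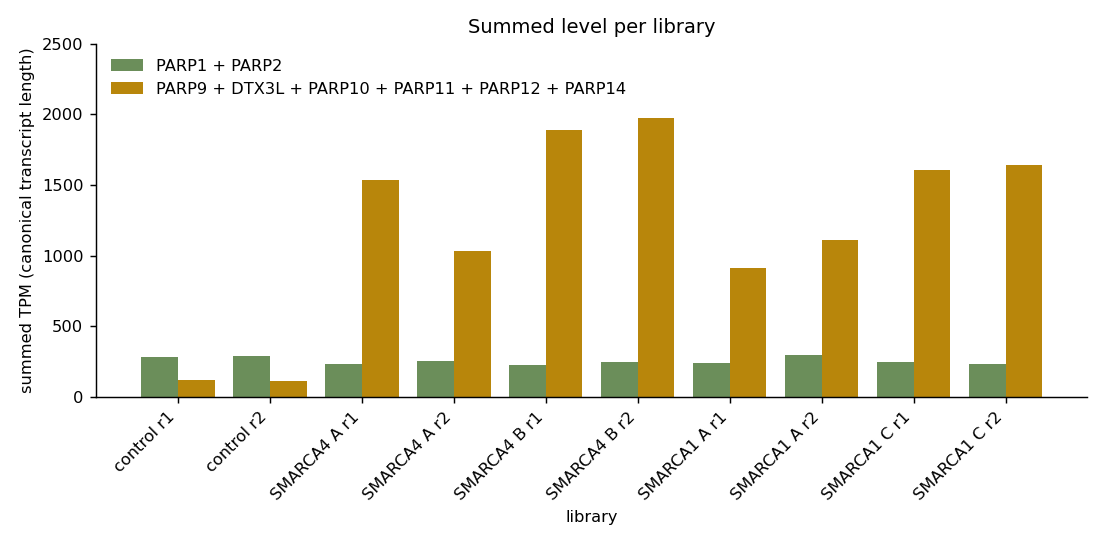
Summed TPM by canonical transcript length (y axis from 0) of *PARP1* and *PARP2* (green) and of the 6 interferon-linked members (gold) in each of the 10 libraries. The gold bar is the lower one in both controls, at 117.2 and 113.3 TPM, and the higher one in all 8 knockdown libraries, at 915 to 1976 TPM.

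The genes around the 3 clustered members had smaller log2 fold changes, in both directions. Of 11 other tested genes with an exon within 500 kb, 2 were called higher, 3 lower and 6 not called in the *SMARCA4* knockdown, and 2 higher, 2 lower and 7 not called in the *SMARCA1* knockdown, close to the 45.1% and 46.8% of all tested genes that were called. Their log2 fold changes ran from -1.31 (*CSTA*) to 0.89 (*PDIA5*) and from -0.84 (*LINC02035*) to 0.55 (*PDIA5*). *CSTA* and *LINC02035* were called lower and *PDIA5*, a protein disulfide isomerase, higher in both knockdowns. *MIX23* (-0.58) and *SEC22A* (0.41) were called in the *SMARCA4* knockdown, and *SLC49A4* (0.37) in the *SMARCA1* knockdown. The adjoining tested gene on the *PARP9* side, *KPNA1*, which encodes an importin, was at 0.29 (adjusted p = 0.092) and 0.21 (adjusted p = 0.22). On the *PARP14* side, *HSPBAP1* was at 0.21 (adjusted p = 0.3) and 0.34 (adjusted p = 0.092). *PARP15*, which lies between *DTX3L* and *PARP14*, had 0 and 2 counts in the controls, 5 to 8 in the *SMARCA4* and 0 to 5 in the *SMARCA1* libraries, and did not pass the filter on low counts.

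**Figure D5:**
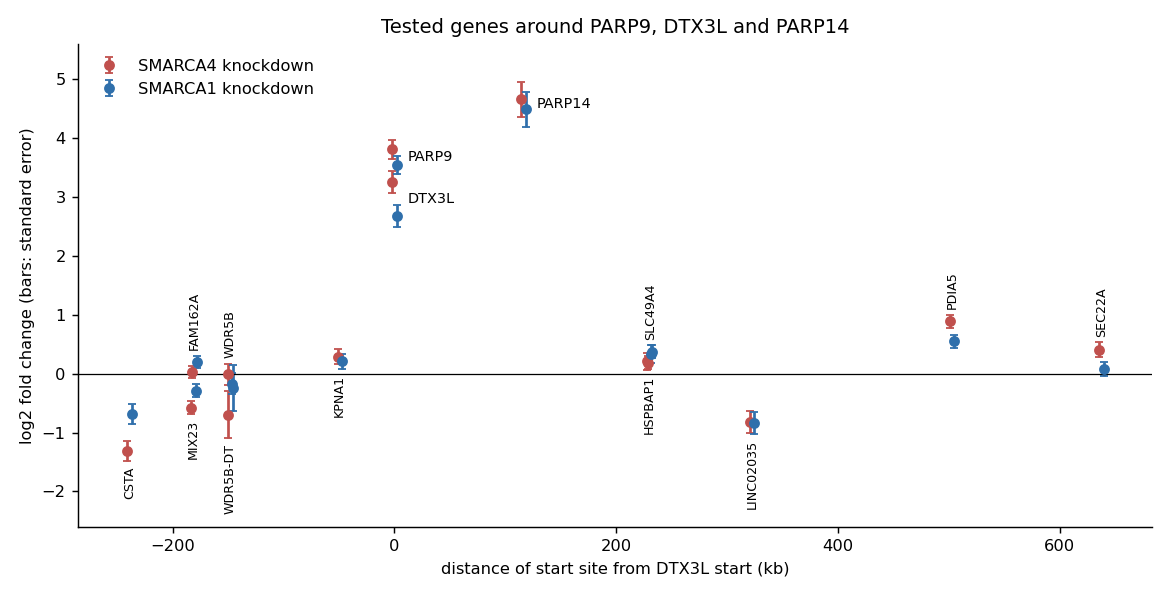
Log2 fold change (y axis, bars are standard errors) of the tested genes around *PARP9*, *DTX3L* and *PARP14* against the distance of their start site from that of *DTX3L* in kb, in red for the *SMARCA4* and in blue for the *SMARCA1* knockdown. The 3 genes lie between 2.68 and 4.66, and the 11 others between -1.31 and 0.89.

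Over the rest of the family, 7 of 9 genes were tested. In the *SMARCA4* knockdown 3 were called higher and none lower, and in the *SMARCA1* knockdown 4 higher and 1 lower, beside 45.1% and 46.8% of all tested genes called in either direction. *ZC3HAV1*, the zinc finger antiviral protein that binds viral RNA, rose by 1.53 (SE 0.19, adjusted p = 0.00017) and 1.26 (SE 0.19, adjusted p = 0.00055). *TIPARP*, a target of the aryl hydrocarbon receptor, rose by 1.17 and 1.22 (adjusted p = 0.0022 and 0.0019), and *PARP4*, the vault particle member, by 0.83 and 0.55 (adjusted p = 0.0029 and 0.021). The tankyrase *TNKS* was lower in the *SMARCA1* knockdown (-0.67, adjusted p = 0.019) and at -0.18 (adjusted p = 0.49) in the *SMARCA4* knockdown. *PARP3*, which also responds to DNA breaks, was at 0.12 (adjusted p = 0.52) and 0.22 (adjusted p = 0.21). Of the 4 other deltex ligases, *DTX1* (1.51 and 0.96), *DTX2* (1.37 and 1.41) and *DTX3* (0.77 and 0.29) were called higher in both knockdowns.

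The genes that feed, read or erase ADP-ribosylation were called about as often as all tested genes (45.1% and 46.8%), in both directions. Of 14 that remove or read ADP-ribose, 3 were called higher and 5 lower in the *SMARCA4* knockdown, and 3 higher and 4 lower in the *SMARCA1* knockdown, with medians of -0.28 and -0.16. *ADPRS*, the hydrolase that frees ADP-ribose from serine, rose by 1.07 and 1.37 (adjusted p = 0.00025 and 9.7e-05), whereas *MACROD1*, a macrodomain hydrolase, was lower at -0.97 and -0.90 (adjusted p = 0.00064 and 0.001). Its relative *MACROD2* was lower in the *SMARCA1* knockdown (-1.53, adjusted p = 0.0021) and at -0.29 (adjusted p = 0.42) in the *SMARCA4* knockdown, and *NUDT5*, which cleaves free ADP-ribose, was lower in the *SMARCA4* knockdown (-0.74, adjusted p = 0.00014) and at -0.22 (adjusted p = 0.071) in the *SMARCA1* knockdown. Of 14 genes of NAD synthesis and use, 4 were called higher and 2 lower in the *SMARCA4* knockdown, and 5 higher and 1 lower in the *SMARCA1* knockdown. *NAMPT*, the rate-limiting enzyme of NAD salvage, rose by 0.78 and 1.05 (adjusted p = 0.0067 and 0.0015), and *CD38*, an NAD hydrolase, by 2.85 and 2.60 (adjusted p = 0.00016 and 0.00037) from 3 and 8 counts in the controls. *NMNAT3* was lower at -0.86 and -0.93 (adjusted p = 0.024 and 0.018), and *QPRT*, of NAD synthesis from quinolinate, rose by 0.77 (adjusted p = 0.0063) in the *SMARCA4* knockdown and was at 0.47 (adjusted p = 0.055) in the *SMARCA1* knockdown.

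Among 20 genes of base excision and strand break repair, 10 were called lower and 1 higher in the *SMARCA4* knockdown, and 6 lower and 1 higher in the *SMARCA1* knockdown, with medians of -0.31 and -0.12. Over all tested genes 22.3% and 23% were called lower, so the *SMARCA1* count was near the background. The uracil glycosylase *UNG* fell by 0.86 and 0.35 on the log2 scale (adjusted p = 4.4e-05 and 0.0074) and *TDP1*, which clears stalled topoisomerase from DNA ends, by 0.76 and 0.77 (adjusted p = 0.00033 and 0.00039). The glycosylase *NEIL3* was lower in both, at -1.11 and -0.80 (adjusted p = 0.00019 and 0.0013). Its relative *NEIL2* was lower in the *SMARCA4* knockdown (-1.47, adjusted p = 0.00023) and at -0.35 (adjusted p = 0.15) in the *SMARCA1* knockdown.

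Among 16 genes for interferon ligands, their receptors and the signal transducers behind them, 11 were called higher in the *SMARCA4* and 13 in the *SMARCA1* knockdown, and none lower. The shares of all tested genes called higher were 22.8% and 23.8%, and those called lower 22.3% and 23%. *IFNB1*, which encodes interferon beta, had 0 counts in both controls, 43 to 188 counts in the *SMARCA4* libraries and 74 to 317 in the *SMARCA1* libraries. *IFNL1*, a type III interferon, had 0 and 1 counts in the controls, 184 to 945 in the *SMARCA4* libraries and 256 to 1130 in the *SMARCA1* libraries. *IFNL2* and *IFNL3*, of the same type, had at most 1 count in a control and at least 174 in every knockdown library. Within either target, the libraries of siRNA A had fewer *IFNB1* counts than those of the second siRNA (97 and 43 against 178 and 188 for *SMARCA4*, 74 and 85 against 317 and 315 for *SMARCA1*), the order also seen in the means of the 5 rising members. The part of interferon in the result was not tested. Because the labels name neither an siRNA nor a dose for the control, knockdown of the target and siRNA transfection as such cannot be told apart.

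Of 7 immune cell markers, 3 had no counts in either control, and the sum of the list was 2.38 to 2.75 CPM in the controls, 2.42 to 16.0 CPM in the *SMARCA4* knockdown and 9.10 to 23.7 CPM in the *SMARCA1* knockdown. The defining markers *PTPRC*, *CD3E* and *MS4A1* together had at most 1 count in any library, and the rise lay in *LYZ* (14 and 19 counts in the controls, 48 to 713 in the knockdown libraries). *CD14* had 37 and 49 counts in the controls. It was called lower in both knockdowns (-1.36 and -0.67, adjusted p = 0.0011 and 0.035 by edgeR's quasi-likelihood test). *CSF1R* had 1 and 10 counts in the controls and at most 1 in a knockdown library. The labels name VCaP cells alone and no immune cells. In bulk RNA, fewer cells of a type and less RNA per cell cannot be told apart.

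By the root mean square difference over the 4 siRNA log2 fold changes, among 13646 genes averaging at least 1 CPM, the genes most like *PARP9* were *B3GNT7* (0.135), *PARP12* (0.162) and *PML* (0.217). Those most like *PARP14* were *IFIH1* (0.160), *HERC5* (0.160) and *IRF7* (0.191). For *PARP1*, whose changes were small, *NDUFA1* (0.024) and *POGLUT2* (0.031) came closest. These values describe likeness in the same 8 knockdown and 2 control libraries.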

How the data were processed

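RNA was polyadenylated and the libraries strand-specific. The authors trimmed adaptors, aligned the paired-end reads to GRCh38 (hg38) with HISAT2 (2.1.0 in the submitters' processing notes) and assigned them to GENCODE genes with featureCounts (1.5.2). The release is not given in the sources used here. The deposited values are raw, unnormalized counts of 59386 genes in 10 libraries. Nothing read here gives the strand setting of the counting. Of 808 genes contained in exons on the other strand, 215 (26.6%) reached 10 counts.

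Low genes were removed by filterByExpr (edgeR 4.0.16, R 4.3.3, minimum count 10, minimum total 15). After TMM scaling, the 5 groups were modelled together with edgeR's quasi-likelihood functions glmQLFit and glmQLFTest. A knockdown is the mean of its 2 siRNA groups. P-values were adjusted over all 16899 tested genes by the Benjamini-Hochberg method, with calls below 0.05. The SE is the absolute log2 fold change over the square root of F. Totals were 23898545 to 34667965 counts, and 3 counts, the limit that a count of 0 allows, equal 0.0865 to 0.126 CPM (counting error only).

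Some genes of the lists are not reported here and were left out of their counts. The members, the gene lists and the rule for named genes were chosen with earlier results of these data known. Named are all members and both targets, up to 4 called genes of each list with the largest change at 1 CPM or more, the tested genes around *PARP9*, *DTX3L* and *PARP14* that adjoin them or were called, and the genes most like *PARP9* and *PARP14* (3 each) and *PARP1* (2 of 3 given). *PARP3*, *PARP15* and the immune markers were added after their values were seen. In tests on simulated data for the *SMARCA4* comparison (16899 genes), 87% of 100 genes changed by a log2 fold of 1.5 and 56% of 100 changed by 0.75 were recovered. The alternatives were DESeq2 1.42.0, other filters and scalings, a block for the replicate number, models of the compared groups alone, and each library left out in turn.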

Additional observations from a re-analysis of the deposited data

Results flagged for a closer look

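The following 5 members were flagged because the knockdowns differed by a direct test (edgeR's quasi-likelihood test, 4 libraries each). Of all tested genes, 35.4% were called in the same comparison, so such a call was common. *PARP1* was lower in the *SMARCA4* than in the *SMARCA1* knockdown by a log2 difference of -0.28 (adjusted p = 0.016), with all 4 *SMARCA4* libraries below all 4 *SMARCA1* libraries. *DTX3L* was higher by 0.58 (adjusted p = 0.0072), *PARP8* by 0.50 (adjusted p = 0.0051) and *PARP2* by 0.23 (adjusted p = 0.04), and *PARP10* was lower, at -0.79 (adjusted p = 0.029). Of 15 other fits, 8 lost the *PARP2* call, 4 the *PARP1* call and 4 the *PARP10* call. For *PARP8*, *SMARCA1* siRNA C (35.4 and 39.0 CPM) lay within the *SMARCA4* range (30.3 to 41.3 CPM), and siRNA A (15.9 and 17.6 CPM) below it. The spread in this test is that between replicates of the same siRNA, not between siRNAs of a target.

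A further pair of genes was flagged because the libraries of the siRNAs of one target lay on opposite sides of the controls. *PARP8* was below both controls in both *SMARCA1* siRNA A libraries and above them in both siRNA C libraries, a difference of 1.15 (adjusted p = 0.096). *PARP2* was above both controls with *SMARCA4* siRNA A and below them with siRNA B, a difference of -0.28 (adjusted p = 0.15). The siRNA B libraries lay close to the controls, at a log2 fold change of -0.03 (adjusted p = 0.86 by edgeR's quasi-likelihood test). Neither difference between siRNAs passed the test.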

How the results depend on the processing

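In each knockdown, *PARP9*, *DTX3L*, *PARP10*, *PARP12* and *PARP14* were called higher under all 13 alternatives, and the gap between the interferon-linked and the repair median kept its direction, moving beyond the replicate spread for *SMARCA4* siRNA A alone (3.10 to 3.81 with one library left out). The comparisons of siRNAs were the least settled. Between *SMARCA4* siRNA B and A the number of members called, 0 in the report, was 3 with DESeq2, 5 without a filter, 2 with a stricter filter (1 CPM in 4 libraries), 1 with RLE factors, 2 with library totals and 0 to 3 with one library left out. Between *SMARCA1* siRNA C and A it was 4 with DESeq2, 6 without a filter and 0 to 4 with one library left out. Between the knockdowns it was 2 to 7 with one library left out, the lowest without *SMARCA1* siRNA C replicate 1 or *SMARCA4* siRNA B replicate 2. The cause was not tested.

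The correlations of same-numbered libraries' deviations from their group means ran from -0.103 to 0.362. They were over 0.1 among *SMARCA1* siRNA A and both *SMARCA4* groups (0.125, 0.266 and 0.362) and below it in every pair with the control or *SMARCA1* siRNA C, so the numbers were not taken to pair the libraries. A replicate block gave 2 called members between the *SMARCA4* siRNAs and 1 between the *SMARCA1* siRNAs. Between the *SMARCA4* siRNAs the block called 1301 of all genes, RLE factors 1075, library totals 1124 and the stricter filter 1171 of 13816 tested. Without a filter 31986 genes were tested. With the compared groups alone 15979 were tested between the *SMARCA4* siRNAs and 16010 between the *SMARCA1* siRNAs. Over all genes, calls between the *SMARCA4* siRNAs went from 1048 to 1674 with DESeq2, 2352 without a filter, 212 with the compared groups alone and 48 to 1276 with one library left out. Calls between the *SMARCA1* siRNAs went from 2 to 516, 1276, 0 and 0 to 1927, and to 16 with the block. *SMARCA1* siRNA A against control called 5873 genes and 3665 with the compared groups alone. Without control replicate 1 the calls went from 7616 to 4413 in the *SMARCA4* and from 7911 to 4430 in the *SMARCA1* knockdown, and for single siRNAs from 5614 to 2862 and 7601 to 4918 (*SMARCA4* A and B) and from 5873 to 2496 and 7659 to 4700 (*SMARCA1* A and C), and between the knockdowns they fell to 3683 from 5982 without *SMARCA1* siRNA C replicate 1. Scaling by library totals moved the median log2 fold change of all genes most between the *SMARCA1* siRNAs, from 0.02 to -0.06.

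Signs that turned belonged to values near 0. Between the knockdowns, *PARP12* (-0.04 to 0.30 with one library left out) and *PARP14* (-0.02 to 0.42) turned without *SMARCA4* siRNA A replicate 1. Between the *SMARCA4* siRNAs, *PARP1* turned with the stricter filter (0.00), without siRNA A replicate 2 and without siRNA B replicate 1 (-0.06 to 0.02 over the libraries left out), *PARP11* without siRNA B replicate 1 (-0.34 to 0.07) and *PARP8* without siRNA A replicate 1 (-0.28 to 0.03). Between the *SMARCA1* siRNAs, *PARP2* turned without a filter (-0.01), with the stricter filter (-0.02), with library totals (-0.07), with the compared groups alone (-0.01) and with each library left out (-0.01 to -0.00), and *PARP11* without siRNA A replicate 2 (-0.30 to 0.25). In all, 490 of the single-gene alternatives gave the direction and call of the report, 19 lost a call, 42 gained one and 16 turned in sign.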
